A study of Mus musculus with 14 samples.

Results

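A set of 30 genes of cholesterol synthesis, sterol sensing, uptake, transport and efflux was followed in fetal mouse ovaries in which Coup-tfII (symbol Nr2f2), a nuclear receptor, had been deleted. The genes were taken by name, and every probe set of the arrays whose only gene symbol was one of these names was used. This gave 62 probe sets for 28 of the 30 genes, of 45037 probe sets and 18193 genes on the arrays, while Acat2 and Soat1 had no probe set with a single symbol and were not analysed here. All 28 genes passed the filter on dim signals, which used the mean over all 14 arrays, and 54 of their 62 probe sets passed it.

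The 14 arrays fell into 4 groups: E16.5 knockout ovaries (n = 4), E16.5 control ovaries (n = 4), E14.5 knockout ovaries (n = 3) and E14.5 control ovaries (n = 3), labelled as biological replicates. The knockout model was WT1-CreERT2; COUP-TFII flox/flox, in which tamoxifen switches on a recombinase made in cells that express Wt1, so only cells with an active Wt1 driver can lose the gene. The dams were given tamoxifen at 2 mg per 10 g of body weight at E11.5 and again at E12.5, so control embryos were exposed to it too. The strain was a mix of C57BL/6, Swiss Webster and B6129SF1/J. The labels name the other ovaries only control, and whether those embryos carried Cre is unknown here. Whole ovaries were measured, so fewer cells of a type and less RNA per cell cannot be told apart. As a check of the tissue label, all 7 pre-granulosa and all 7 germ cell markers had a mean signal above the filter level of 62.0 in every group.

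Cholesterol is built from acetyl-CoA through mevalonate, isoprenoids and squalene to lanosterol, the first sterol, and then through a run of demethylations and double-bond changes. When sterol is scarce, the escort protein SCAP carries SREBP transcription factors from the endoplasmic reticulum to the Golgi, where they are cut and released to activate the synthesis and uptake genes, while INSIG proteins hold the complex back when sterol is plentiful. Steroid-producing cells also take cholesterol from lipoproteins, move it to mitochondria with the STAR protein and cut its side chain with CYP11A1 to make pregnenolone, the precursor of all steroid hormones.

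The promoters of 3 of these genes are shown because Hmgcs1 carries the sterol regulatory element that SREBP factors bind, and because Scap and Hsd17b7 had the lowest adjusted p of the 28 genes in E16.5 knockouts. RefSeq promoters (build GRCm38.p6, the 250 bases before the start of transcription) were found for 22 of the 30 genes, 28 promoters in all. Capitals mark 3 motifs searched on both strands: the sterol regulatory element TCACNCCAC, the CCAAT box (CCAAT, or ATTGG on the other strand) bound by NF-Y, a partner of SREBP factors, and AGGTCA (or TGACCT), the half-site bound by many nuclear receptors, COUP-TF proteins included. The motifs do not overlap each other in these sequences.
Hmgcs1, chr13:119690101-119690350, plus strand: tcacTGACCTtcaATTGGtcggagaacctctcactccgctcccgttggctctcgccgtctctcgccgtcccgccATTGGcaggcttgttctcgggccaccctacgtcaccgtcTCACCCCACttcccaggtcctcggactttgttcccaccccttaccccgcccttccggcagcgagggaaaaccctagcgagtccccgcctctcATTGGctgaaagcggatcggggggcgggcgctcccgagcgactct
Hsd17b7, chr1:169969206-169969455, minus strand: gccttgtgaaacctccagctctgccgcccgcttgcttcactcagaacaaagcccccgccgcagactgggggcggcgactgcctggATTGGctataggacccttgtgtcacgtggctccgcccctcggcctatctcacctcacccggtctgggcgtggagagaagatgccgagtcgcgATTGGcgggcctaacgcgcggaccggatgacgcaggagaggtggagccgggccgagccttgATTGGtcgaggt
Scap, chr9:110333106-110333355, plus strand, 1 of 2 listed starts: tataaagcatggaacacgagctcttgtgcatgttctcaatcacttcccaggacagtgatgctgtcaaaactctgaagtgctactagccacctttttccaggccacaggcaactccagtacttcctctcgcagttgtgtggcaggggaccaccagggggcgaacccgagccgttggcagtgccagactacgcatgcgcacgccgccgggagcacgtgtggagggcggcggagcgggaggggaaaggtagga
The CCAAT box was found in 20 of the 28 promoters (71.4%), against 33.8% of the 32851 promoters in the table. AGGTCA was found in 5 of 28 (17.9%; Dhcr7, Hmgcs1 and Insig1), against 14% of all. The sterol regulatory element was found in 1 of 28, that of Hmgcs1, against 1.05% of all. Hsd17b7 held 3 CCAAT boxes, and Scap held none of the motifs in either window. A match is a run of letters and was not tested as a binding site.

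Signals were MAS5 intensities on a linear scale, with the same trimmed mean of 500 on every array. Nr2f2 was checked first: on its brightest probe set it had 2534 ± 575 in E16.5 knockouts and 4332 ± 467 in E16.5 controls (SD, n = 4 each), and 225 ± 60.9 in E14.5 knockouts and 377 ± 143 in E14.5 controls (SD, n = 3 each). On this brightest probe set every E16.5 knockout array lay below every control array, while the E14.5 arrays overlapped. Nr2f2 itself did not pass the 0.05 threshold for either stage. The adjusted p that limma gave it was 0.0753 for the E16.5 ovaries and 0.444 for the E14.5 ovaries. On another probe set Nr2f2 had 321 ± 60.6 in E16.5 knockouts and 1974 ± 185 in E16.5 controls (SD, n = 4 each). On that probe set E14.5 control replicate 1 had 19.3, against 350 and 207 in E14.5 controls 2 and 3, and so lay below the E14.5 knockouts, at 34.6, 65.6 and 79.1. Which probe sets lie in the deleted part was not tested. Replicates 1 and 4 of the E16.5 knockouts stood apart in the bioB hybridization control, a spiked-in RNA, at 9664 and 15920, whereas the remaining 6 arrays of that stage had 3956 to 5365. Their log2 difference between the 3′ and 5′ Gapdh probe sets, a measure of RNA integrity and amplification, was 0.94 and 1.31, against 1.57 to 1.82 on those 6 arrays.

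Whether loss of Coup-tfII was accompanied by a change of sterol supply genes was read first at E16.5. Of the 28 genes, 1 was higher and 0 were lower in knockouts (limma with Benjamini-Hochberg adjustment over 12406 genes, adjusted p under 0.05), while 1.42% of all tested genes passed, 0.967% higher and 0.451% lower. The gene that rose was Scap. An unadjusted p under 0.05 was found for 7 of the 28 genes, against 18.3% of all genes. The log2 changes of signal plus 16, the scale of all fold changes here, lay between -0.74 and 0.58, 21 positive and 7 negative. The median was 0.14, against 0.05 over all genes tested. The 95% intervals of 26 of the 28 genes excluded a change of 2-fold or more in either direction, and those of 16 excluded 1.5-fold or more.

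**Figure D1:**
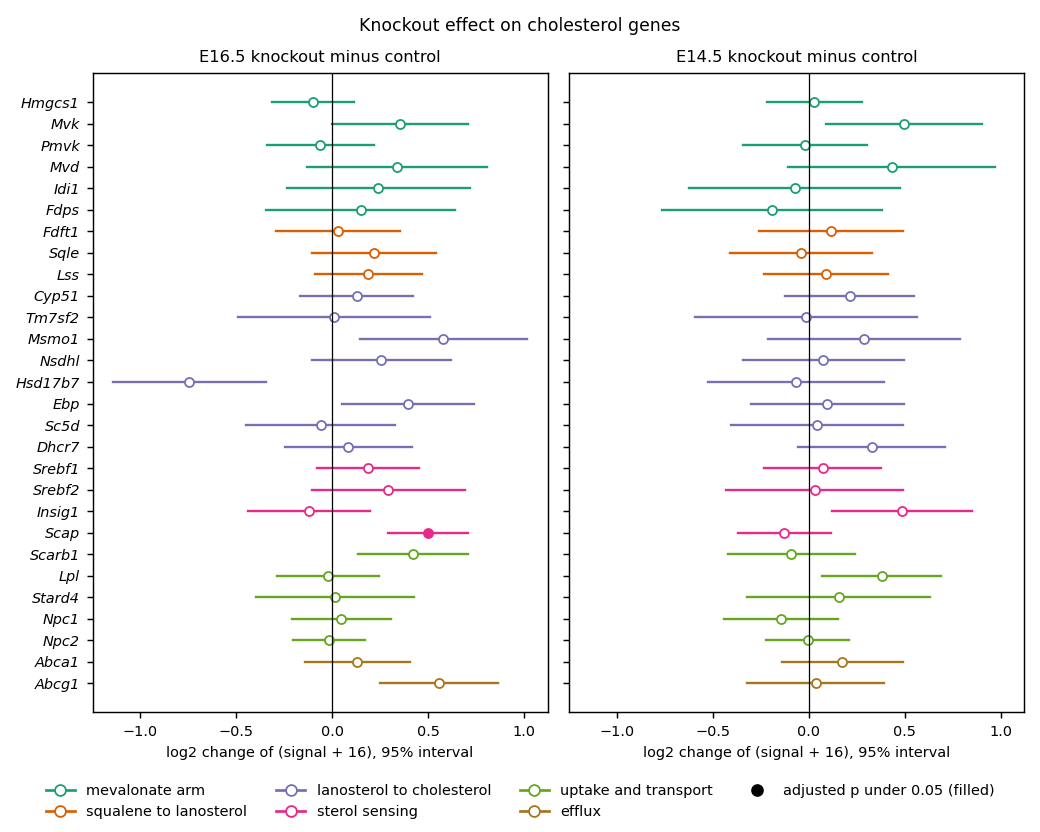
Log2 change of signal plus 16 (horizontal axis), knockout minus control, for the 28 measured cholesterol genes (rows, coloured by role), at E16.5 on the left and E14.5 on the right; points are limma estimates and bars 95% intervals. Only Scap at E16.5 is filled (adjusted p under 0.05), and Hsd17b7 at E16.5 lies lowest at -0.74.

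Scap, the escort protein of SREBP factors, had signals of 1646, 1625, 1703 and 1825 in E16.5 knockouts, against 1182, 1072, 1181 and 1364 in E16.5 controls. Every knockout array lay above every control array. The means were 1700 ± 90.0 in knockouts and 1200 ± 121 in controls (SD, n = 4 each), a ratio of 1.42, and the log2 change was 0.50 ± 0.10 (SE; limma adjusted p = 0.0172). Across the E16.5 comparison the arrays of 4 of 28 genes did not overlap between genotypes on the brightest probe set, 3 above and 1 below, while 10.4% of all genes did not overlap, 6.22% above and 4.22% below. Without knockout replicates 1 and 4 Scap had 0.47 (limma adjusted p = 0.182), a change of nearly the same size that did not pass. The call was also lost when any one of control replicates 1, 2 or 3 or knockout replicates 1 or 4 was left out, with limma adjusted p of 0.0532 to 0.0618. A second Scap probe set was too dim to be tested, with 41.6, 15.1, 2.71 and 3.96 in E16.5 knockouts and 30.2, 7.04, 23.0 and 33.7 in E16.5 controls, and averaging it in gave a log2 change of 0.05.

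The rest of the sterol sensing genes did not pass at E16.5. Srebf2, the SREBP factor that acts mainly on cholesterol genes, had a log2 change of 0.29 ± 0.19 and Srebf1, which acts mainly on fatty acid genes, had 0.19 ± 0.13 (SE). A second Srebf2 probe set had 555, 211, 272 and 529 in knockouts, against 213, 261, 148 and 208 in controls, with replicates 1 and 4 the highest and overlap between the groups (0.78 ± 0.27, SE, not passing). Insig1, which retains SCAP in the endoplasmic reticulum and is itself an SREBP target, had 3163, 3720, 3900 and 2512 in knockouts, against 3777, 3751, 2929 and 3886 in controls. The Insig1 arrays overlapped, and the log2 change was -0.12 ± 0.15 (SE).

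Of the 17 measured synthesis enzymes, 0 were called in either direction at E16.5, against 1.42% of all genes, with 13 positive and 4 negative log2 changes. Of the 17, 4 had an unadjusted p under 0.05, against 18.3% of all genes. In the mevalonate arm, Hmgcs1, which makes HMG-CoA, had 8067 ± 498 in knockouts and 8670 ± 835 in controls (SD, n = 4 each), and a log2 change of -0.10 ± 0.10 (SE). Its other 4 probe sets went both ways, at 0.23, 0.23, -0.22 and -0.65, and none passed over all probe sets. The dimmest of them had 109, 78.4, 107 and 89.1 in knockouts, against 136, 180, 188 and 136 in controls, all knockout arrays being lower (-0.65 ± 0.20, SE; limma adjusted p = 0.127). The remaining 5 measured genes of that arm, which also hold Mvd and the isoprenoid enzymes Idi1 and Fdps, ran between -0.06 for phosphomevalonate kinase (Pmvk) and 0.35 for mevalonate kinase (Mvk). Squalene synthase (Fdft1), squalene epoxidase (Sqle) and lanosterol synthase (Lss) had 0.03, 0.22 and 0.19. A less bright Lss probe set had separated arrays, with knockouts higher (0.30 ± 0.24, SE), and did not pass. The dimmest Lss probe set had 0.52 ± 0.17 (SE; limma adjusted p = 0.155 over all probe sets), with overlapping arrays, and did not pass either.

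The widest spread was among the 8 enzymes from lanosterol to cholesterol. Hsd17b7, which reduces the 3-keto group left during C4 demethylation and also converts estrone to estradiol, had 672, 1014, 1071 and 555 in E16.5 knockouts, against 1561, 1582, 1171 and 1138 in E16.5 controls. All knockout arrays lay below all control arrays, with replicates 1 and 4 the lowest. The means were 828 ± 253 in knockouts and 1363 ± 241 in controls (SD, n = 4 each), a ratio of 0.608. The log2 change was -0.74 ± 0.19 (SE; limma adjusted p = 0.0566), just short of the threshold. A dimmer Hsd17b7 probe set had 357 ± 53.1 in knockouts and 591 ± 102 in controls, and its log2 change of -0.70 ± 0.16 (SE) passed when all 27022 probe sets were tested one by one (limma adjusted p = 0.0415). In that test 0.918% of all probe sets passed. A further probe set that was tested had -0.48 ± 0.23 (SE) and did not pass. Without knockout replicates 1 and 4 the brightest probe set had -0.37 (limma adjusted p = 0.597), so its difference rested in good part on these 2 arrays. On the dimmer probe set that passed, knockout replicates 2 and 3 had 321 and 422, and replicates 1 and 4 had 379 and 308. The controls had 475 to 723 on it.

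Msmo1, the oxidase that starts C4 demethylation a few steps earlier, had 1337, 646, 815 and 812 in E16.5 knockouts, against 666, 631, 479 and 549 in E16.5 controls. The highest array was knockout replicate 1, and knockout replicate 2 lay within the control range. The log2 change was 0.58 ± 0.21 (SE; limma adjusted p = 0.155), the highest of the 28 genes on their brightest probe sets, and 0.32 without knockout replicates 1 and 4. Nsdhl, the dehydrogenase acting between MSMO1 and HSD17B7 in the same demethylation, had 461 ± 85.5 in knockouts and 380 ± 41.0 in controls (SD, n = 4 each), with 0.26 ± 0.17 (SE). The 3 enzymes of this reaction sequence had estimates of 0.58, 0.26 and -0.74, and none passed. Ebp, the sterol isomerase, had 0.40 ± 0.16. On their brightest probe sets the lanosterol demethylase Cyp51, the sterol reductases Tm7sf2 and Dhcr7 and the desaturase Sc5d lay between -0.06 and 0.13. A dimmer Sc5d probe set had 206, 104, 118 and 169 in knockouts, against 118, 60.7, 94.0 and 81.5 in controls, with overlap. Its log2 change of 0.64 ± 0.25 (SE; limma adjusted p = 0.210 over all probe sets) did not pass.

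**Figure D2:**
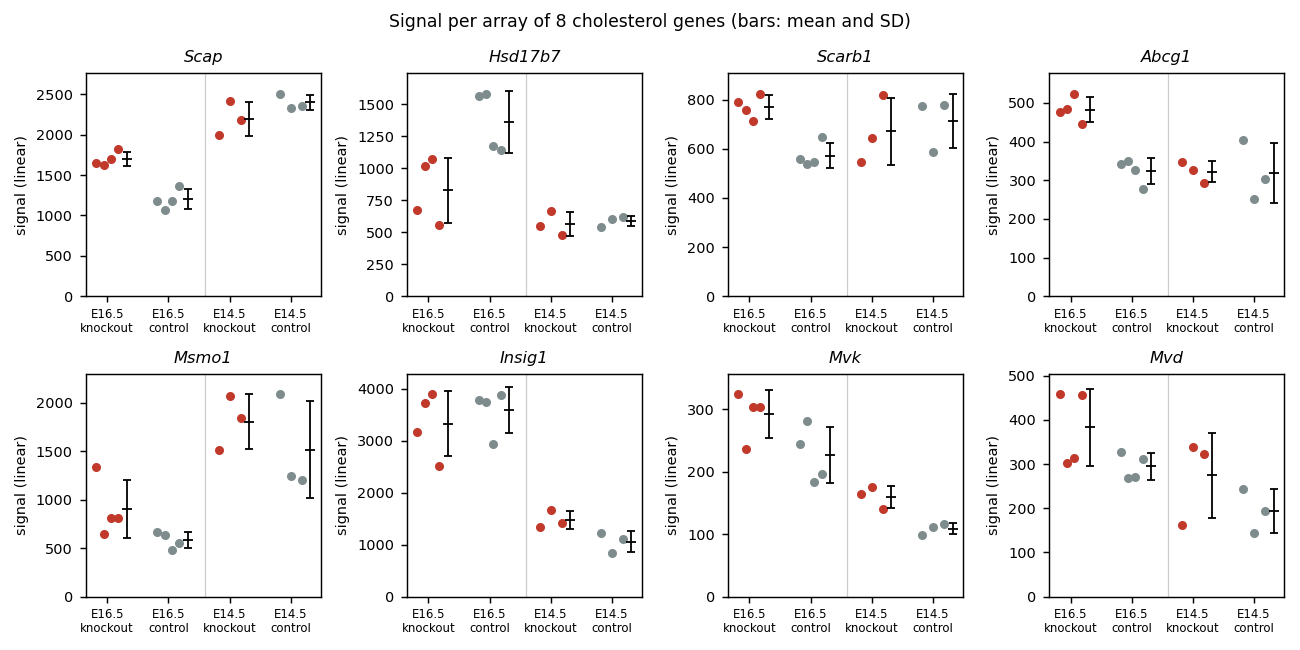
Linear signal (vertical axis) of 8 cholesterol genes on each of the 14 arrays, with knockouts (red) left of controls (grey) at E16.5 and then E14.5; the cross bars give mean and SD. At E16.5 Scap, Scarb1 and Abcg1 lie above and Hsd17b7 below the controls on every knockout array, and at E14.5 this holds, upward, for Mvk and Insig1.

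On their brightest probe sets, uptake and efflux each had 1 gene with separated arrays at E16.5. Scarb1, the receptor SR-BI that takes cholesteryl ester from high-density lipoprotein, had 790, 756, 711 and 824 in knockouts, against 558, 539, 544 and 646 in controls. All knockout arrays were above all control arrays, and this held for each of its 3 probe sets, with log2 changes of 0.42, 0.56 and 0.62. On the brightest the change was 0.42 ± 0.14 (SE; limma adjusted p = 0.124) and did not pass. Abcg1, which exports cholesterol to lipoprotein particles and is strongly expressed in macrophages, had 476, 483, 524 and 446 in knockouts, against 343, 348, 327 and 277 in controls. Its arrays did not overlap, and the log2 change was 0.56 ± 0.15 (SE; limma adjusted p = 0.0632), with 0.62 when knockout replicates 1 and 4 were left out.

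The other transport genes stayed near their controls. Lpl, the lipoprotein lipase, had -0.02 ± 0.13, Stard4, a cytosolic sterol carrier, had 0.02 ± 0.20, and the lysosomal exporters Npc1 and Npc2 had 0.05 ± 0.12 and -0.02 ± 0.09 (SE). Abca1, which exports cholesterol to apolipoprotein A-I, had 0.13 ± 0.13. The 95% intervals of these 5 genes all lay within -0.40 and 0.43. A second, less bright Npc2 probe set had 4451, 2826, 3146 and 4319 in knockouts, against 2699, 2804, 2572 and 2798 in controls. On it all knockout arrays lay above all control arrays, with replicates 1 and 4 the highest, and its log2 change was 0.41 ± 0.14 (SE; limma adjusted p = 0.155 over all probe sets), without passing.

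Replicates 1 and 4 of the E16.5 knockouts were both outside the range of the other 6 arrays for 7 of the 28 genes (25%), against 31.6% of all genes, 19.7% above and 11.9% below. They lay above for Mvd, Ebp and Scarb1 and below for Hmgcs1, Hsd17b7, Lpl and Npc2. With these 2 arrays left out, 0 of the 28 genes passed in limma, and 16 of all 12406 genes (0.129%) did, against 176 with every array kept.

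Marker levels of several cell types also differed between genotypes at E16.5. Of all genes, 0.967% were called higher and 0.451% lower at E16.5, and the knockout arrays lay wholly above the controls for 6.22% and wholly below for 4.22%. The summed signal of 10 macrophage markers was 7876, 4558, 5540 and 3801 in E16.5 knockouts, against 3925, 3630, 3415 and 3275 in E16.5 controls, with 1 of 9 tested markers called higher and 5 of the 9 without overlap, all above. A sum of 5 adrenal cortex markers, all 5 of them also on the steroid list given later and so no separate evidence, was between 780 and 1109 in knockouts and between 315 and 423 in controls, with 2 of 3 tested called higher. Of these, Cyp11b1 was below the filter level in both genotypes, and Mc2r and Cyp21a1 in controls. The sum of 7 pre-granulosa markers was between 22015 and 23129 in knockouts and between 26929 and 27970 in controls, with 0 of 7 called. The sum of 5 interstitial markers was between 6556 and 10499 in knockouts and between 10329 and 11420 in controls, with 2 of 5 called lower. The sum of germ cell markers was 14790 to 18051 in knockouts and 12867 to 18071 in controls, with overlap. That of mesonephric epithelium markers was 2719 to 3337 in knockouts and 2895 to 3997 in controls, also with overlap. Yet 2 of its 3 tested markers had separated arrays, higher in knockouts. The log2 changes of these 3 ran between -0.32 and 0.77, and 0 were called. The sum of 6 endothelial markers was 3372 to 4289 in knockouts and 2926 to 3299 in controls. These markers went both ways, with 1 of 6 called higher and 1 lower, and with 1 separated above and 2 below. Of 3 measured adipocyte markers, Adipoq and Cidec were below the filter level in both. Pparg was tested and not called, with a log2 change of -0.31 and overlapping arrays. At E14.5 Pparg had -0.40 and was not called either, with every knockout array below the controls, against 4.9% of all genes. The part of these cells in the Scap, Hsd17b7, Scarb1 and Abcg1 values was not tested.

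At E14.5 0 of the 28 genes passed in limma, while 0.0403% of all tested genes passed, and 0 passed with all probe sets tested one by one, when 0.0222% of all probe sets did. An unadjusted p under 0.05 was found for 3 of the 28, against 8.55% of all genes. Log2 changes ran between -0.19 for Fdps, which makes farnesyl diphosphate, and 0.50 for Mvk, 18 positive and 10 negative, with a median of 0.06 against 0.03 over all genes. The 95% intervals of all 28 genes excluded a change of 2-fold or more in either direction, and those of 18 excluded 1.5-fold or more. On the brightest probe sets arrays did not overlap for 2 of the 28 genes, both above, against 12.7% of all genes, 7.84% above and 4.9% below. Without E14.5 control replicate 1 the count of genes called was again 0 of 28, while 23 of all 12406 genes (0.185%) passed, against 5 with that array. Without E14.5 knockout replicate 3 it was also 0 of 28, while 179 of all genes (1.44%) passed.

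Those 2 genes were Mvk and Insig1. Mvk had 164, 175 and 139 in E14.5 knockouts, against 98.4, 111 and 116 in E14.5 controls, all knockout arrays being higher. Its log2 change was 0.50 ± 0.19 (SE; limma adjusted p = 0.468), and its other probe set overlapped between genotypes. Insig1 had 1341, 1668 and 1412 in E14.5 knockouts, against 1232, 838 and 1106 in E14.5 controls, also without overlap. Its log2 change was 0.48 ± 0.17 (SE; limma adjusted p = 0.424). Mvd, which makes isopentenyl diphosphate at the end of the mevalonate arm, had 162, 338 and 323 in knockouts, against 244, 143 and 194 in controls, and its arrays overlapped (log2 change 0.43 ± 0.26, SE). Scap had 1995, 2414 and 2183 in E14.5 knockouts, against 2509, 2331 and 2358 in E14.5 controls, and overlapped. Its second probe set, too dim to be tested, had 43.5, 2.11 and 22.9 in E14.5 knockouts, against 67.8, 86.4 and 57.6 in controls. There every knockout array was lower. A dim Abcg1 probe set, also untested, had 9.02, 71.9 and 58.2 in E14.5 knockouts, against 5.88, 7.84 and 5.94 in controls. On that one every knockout array was higher. Hsd17b7 had 545, 665 and 478 in knockouts, against 541, 601 and 616 in controls, and overlapped on its brightest probe set. On the dimmer probe set that passed at E16.5 it had 329, 371 and 268 in E14.5 knockouts, against 379, 464 and 445 in E14.5 controls. There every E14.5 knockout array lay below every control array, without passing (-0.40 ± 0.18, SE; unadjusted p = 0.0390, limma adjusted p = 0.592 over all probe sets). A less bright Hmgcs1 probe set was also separated, upward, at E14.5 (0.17 ± 0.12, SE), and did not pass.

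The difference of the knockout effect between the stages, E16.5 minus E14.5, was called for 0 of the 28 genes and 0% of all genes in limma, with 5 of the 28 and 1105 of 12406 genes (8.91%) at an unadjusted p under 0.05. The lowest adjusted p among the 28 was that of Scap, with a difference of 0.63 ± 0.15 on the log2 scale (SE; limma adjusted p = 0.398). Hsd17b7 had a difference of -0.68 ± 0.29 on its brightest probe set, -0.29 ± 0.24 on the dimmer probe set that passed at E16.5, and Insig1 one of -0.60 ± 0.23 (SE). Without E14.5 knockout replicate 3 the count called was again 0 of the 28, while 30 of all 12406 genes (0.242%) passed. For the 28 genes the knockout effects at E16.5 and E14.5 were therefore not shown to differ.

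Genes around the pathway were read from lists too. Of 22 further cholesterol genes (SREBP processing proteases, lipoprotein receptors, carriers, esterases), 19 were tested. At E16.5 0 of the 19 passed, against 1.42% of all genes, and at E14.5 0 passed, against 0.0403%. The nearest was Stard3, a late endosomal cholesterol transporter, with 383, 310, 170 and 325 in E16.5 knockouts, against 147, 151, 166 and 225 in E16.5 controls. Its knockout replicate 3 lay among the controls, and the other knockout arrays lay above them (log2 change 0.70 ± 0.20, SE; limma adjusted p = 0.0891). Of 11 fatty acid and phospholipid synthesis genes, most of them SREBP targets, 0 passed at either stage, against the same 1.42% and 0.0403%. Their E16.5 log2 changes were 6 positive and 5 negative, with a median of 0.008 against 0.05 over all genes. At E14.5 they were 10 positive and 1 negative, with a median of 0.16 against 0.03 over all genes. Fasn, the fatty acid synthase, had 1756, 1245, 1517 and 1992 in E16.5 knockouts, against 1176, 1239, 1223 and 1282 in E16.5 controls. Knockout replicates 1 and 4 were the highest and replicate 2 lay within the control range (0.38 ± 0.13, SE; limma adjusted p = 0.133). Elovl6, a fatty acid elongase, had 1228, 968, 846 and 917 in knockouts, against 819, 759, 671 and 680 in controls, without overlap on its brightest probe set (0.42 ± 0.17, SE; limma adjusted p = 0.195).

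The genes that use cholesterol as a steroid precursor were set beside the supply genes. Of 16 listed steroid and adrenocortical genes, 13 had a probe set and 10 were tested. At E16.5, 3 of the 10 were higher and 0 lower in knockouts, against 0.967% higher and 0.451% lower of all genes. At E14.5 0 passed, against 0.0403% of all genes. There 4 of the 10 had an unadjusted p under 0.05, against 8.55% of all genes. The E14.5 arrays of 2 tested steroid genes were separated, with knockouts above, against 7.84% of all genes. Hsd3b1, which turns pregnenolone into progesterone, had 5800, 3305, 4305 and 3012 in E16.5 knockouts, against 2106, 1095, 1316 and 1034 in E16.5 controls. The arrays did not overlap, the ratio of means was 2.96, and the log2 change was 1.57 ± 0.30 (SE; limma adjusted p = 0.0160). Mc2r, the corticotropin receptor, had 144, 101, 203 and 160 in knockouts, against 51.2, 29.7, 39.2 and 57.8 in controls, without overlap (1.46 ± 0.23, SE; limma adjusted p = 0.00533). Hao2, a hydroxyacid oxidase, had 733, 542, 573 and 355 in knockouts, against 228, 217, 155 and 134 in controls, again without overlap (1.49 ± 0.27, SE; limma adjusted p = 0.0109). Without knockout replicates 1 and 4 the log2 changes of Hsd3b1, Mc2r and Hao2 were 1.49, 1.43 and 1.55, with limma adjusted p of 0.168, 0.0874 and 0.0737.

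The entry steps of steroid synthesis did not pass. Star, which carries cholesterol into mitochondria, had 408, 289, 342 and 314 in E16.5 knockouts, against 213, 381, 318 and 232 in E16.5 controls, with overlapping arrays (0.25 ± 0.19, SE; limma adjusted p = 0.505). Cyp11a1, the side-chain cleavage enzyme, had 145, 80.1, 88.7 and 110 in knockouts, against 228, 167, 138 and 138 in controls, with 1 knockout array inside the control range (-0.59 ± 0.23, SE; limma adjusted p = 0.175). A second Cyp11a1 probe set, too dim for the test, ran the other way, with 68.0, 71.0, 52.0 and 62.0 in knockouts, against 36.2, 37.2, 29.8 and 39.5 in controls. The direction for Cyp11a1 therefore differed between its probe sets. Nr5a1, the transcription factor SF-1 of steroid-producing cells, had 0.43 ± 0.14 (SE; limma adjusted p = 0.134). At E14.5 Hsd3b1 had 3337, 2911 and 1421 in knockouts, against 1947, 1118 and 752 in controls, and its arrays overlapped (1.01 ± 0.35, SE; limma adjusted p = 0.414). It passed at E14.5 in 1 of 30 alternative settings, with a limma adjusted p of 0.0121. The adrenal cortex markers summed to between 736 and 998 in E14.5 knockouts and between 385 and 683 in E14.5 controls. Their part in the Hsd3b1 values at either stage was not tested.

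**Figure D3:**
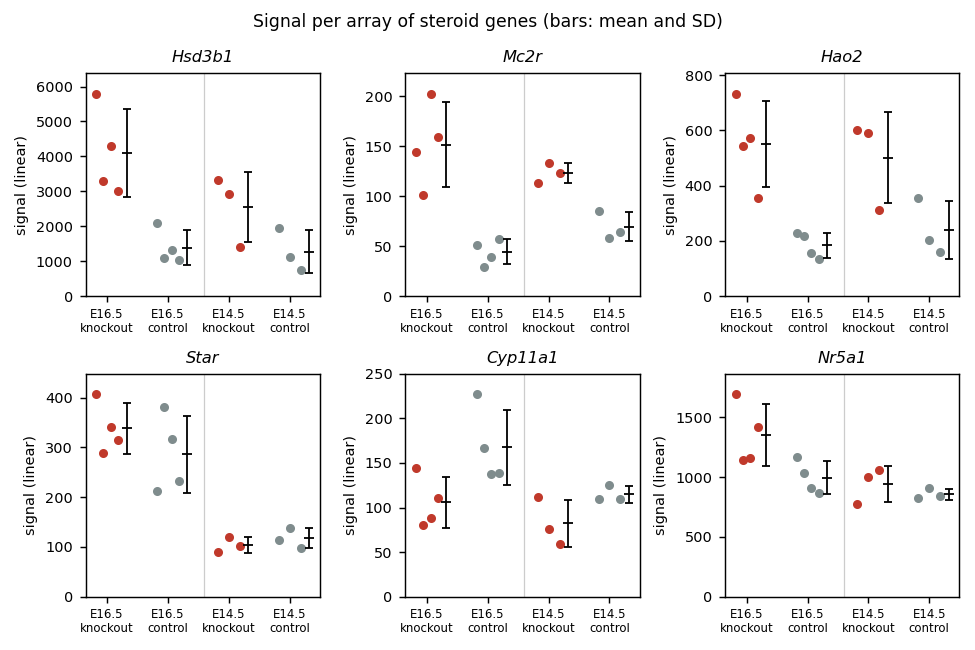
Linear signal (vertical axis) of 6 steroid genes on each array, with knockouts (red) left of controls (grey) at E16.5 and then E14.5; the cross bars give mean and SD. At E16.5 Hsd3b1, Mc2r and Hao2 are separated between genotypes, while Star and Cyp11a1 overlap.

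Between the stages many of the 28 genes differed, as did most genes on the arrays. In knockouts 10 were higher and 10 lower at E16.5 than at E14.5, while 60.8% of all genes passed, 27% higher and 33.8% lower. In controls 10 were higher and 8 lower, while 64.4% of all genes passed, 28.5% higher and 35.9% lower. The 2 stage comparisons share no arrays. Cell type markers differed between the stages as well. Of 7 germ cell markers 5 were lower at E16.5 in knockouts (median log2 change -1.72) and 7 in controls (-2.46), and of 7 pre-granulosa markers 4 were lower in each genotype. Of 9 tested macrophage markers 5 were higher in each genotype, with 1 lower in knockouts and 2 in controls. The part of these cells in the stage differences was not tested. The median over all genes was -0.08 in knockouts and -0.09 in controls, and when each array was centred on its median it was -0.41 in knockouts and -0.43 in controls. With that centring 5 of the 28 were higher and 13 lower in knockouts, and 2082 of all genes were higher and 6065 lower. In controls it gave 7 higher and 13 lower of the 28, and 2257 higher and 6251 lower of all genes. With quantile normalization the counts were 9 higher and 10 lower in knockouts, against 2913 and 4843 of all genes, and 9 higher and 12 lower in controls, against 3069 and 5097 of all genes.

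Insig1 had 3324 ± 626 in E16.5 knockouts and 1474 ± 172 in E14.5 knockouts, and 3586 ± 442 in E16.5 controls and 1058 ± 201 in E14.5 controls (SD). Its log2 change was 1.15 in knockouts and 1.75 in controls. Dhcr7, a late reductase of the pathway, had 1.09 in knockouts and 1.33 in controls, and Pmvk had 0.90 in knockouts and 0.94 in controls. On their brightest probe sets Lss had 1.37 in knockouts and 1.27 in controls, and Hsd17b7 had 0.51 in knockouts and 1.18 in controls. On the falling side, Fdps had 568 ± 62.3 in E16.5 knockouts and 1611 ± 677 in E14.5 knockouts, and 519 ± 119 in E16.5 controls and 1822 ± 693 in E14.5 controls (SD). Its log2 change was -1.41 in knockouts and -1.75 in controls. Msmo1 had -1.03 in knockouts and -1.32 in controls, and Nsdhl had -0.93 in knockouts and -1.11 in controls. Tm7sf2 had -1.06 in knockouts and -1.09 in controls, a direction that turned once the Gapdh measure was a covariate. All of these passed in limma.

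The probe sets of one gene often went opposite ways between stages. Tested one by one, 64.2% of all probe sets passed in knockouts and 67% in controls. Of 15 genes with at least 2 tested probe sets, 5 had calls in both directions in knockouts (Abca1, Cyp51, Hsd17b7, Idi1 and Lss), against 30.9% of all such genes. In controls 7 of 15 did (Abca1, Cyp51, Hmgcs1, Hsd17b7, Lss, Mvd and Npc2), against 31.9%. In the knockout against control comparisons 0 of the 15 did, and 0% of all. Among the 15 that count could not be other than 0, because none had 2 probe sets called. It does not show that probe sets of one gene gave the same knockout effect. For Abca1, 1 probe set had 3074, 3627, 3377 and 2491 in E16.5 controls, against 5816, 5392 and 5064 in E14.5 controls, and a second had 1313, 1564, 1432 and 1058 at E16.5, against 70.8, 32.5 and 47.3 at E14.5. For Lss, the brightest probe set had 948, 964, 867 and 831 in E16.5 controls, against 399, 362 and 335 in E14.5 controls, while another had 89.0, 100.01, 90.4 and 138 at E16.5, against 214, 176 and 217 at E14.5. A direction between stages for these genes holds only for the probe set it is given for.

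**Figure D4:**
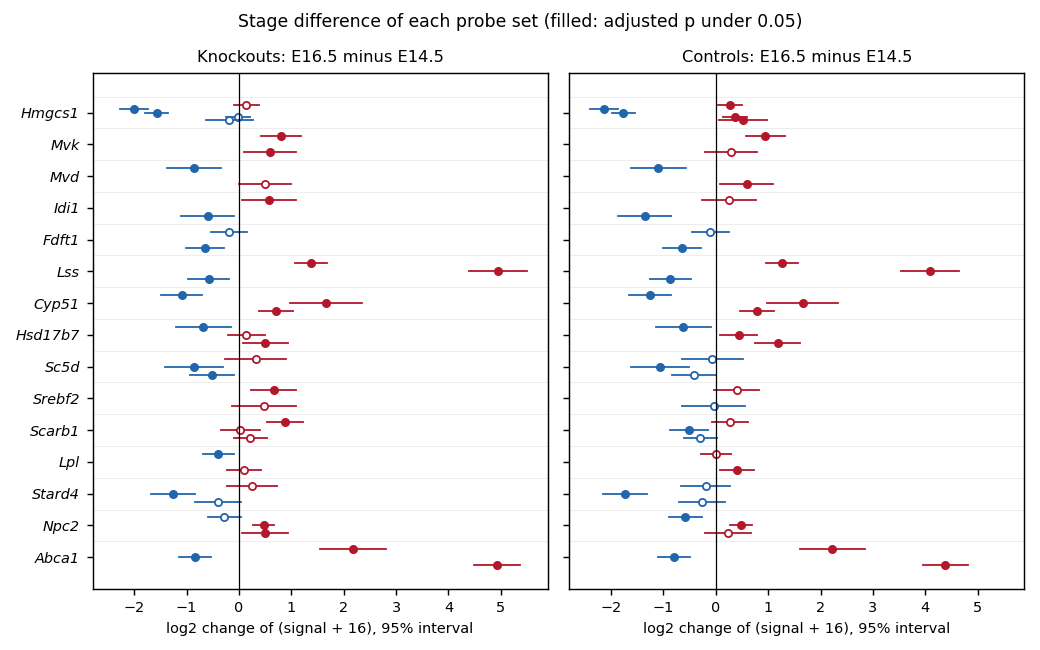
Log2 change of signal plus 16 (horizontal axis), E16.5 minus E14.5, for each tested probe set of the 15 cholesterol genes with at least 2 of them, in knockouts (left) and controls (right); red is positive, blue negative, bars are 95% intervals and filled points have an adjusted p under 0.05. Probe sets of Lss, Cyp51, Hsd17b7 and Abca1 are called on both sides of 0 in both genotypes.

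The arrays of the 2 stages also differed in technical measures. The Gapdh 3′ minus 5′ log2 difference was 0.94 to 1.82 on the E16.5 arrays and -0.42 to -0.06 on the E14.5 arrays, and the bioB signal was 3956 to 15920 on the E16.5 arrays and 1041 to 1239 on the E14.5 arrays. Stage and these measures cannot be told apart here. Once the Gapdh measure was a covariate, 2 of the 28 genes passed between stages in knockouts, with 1192 of all 12406 genes (9.61%), and 1 of the 28 in controls, with 701 of all genes (5.65%).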

How the data were processed

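Whole fetal ovaries were measured on 14 Affymetrix arrays. Per the submitters' processing notes, the deposited linear intensity signals come from MAS5 and Affymetrix Expression Console, and no version is stated. With 2% trimmed at each end, the mean signal of each array was 500, a scaling that removes any global difference in RNA amount. The number of arrays limits the precision.

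Signals were taken as log2(signal + 16), a scale that understates the change of dim genes, with no further normalization. Of 45037 probe sets other than controls, 34945 had 1 symbol in the platform annotation, 932 several and 9160 none listed. A gene was represented by its single-symbol probe set with the highest mean over 14 arrays, and the 12406 genes brighter than the 40th percentile of probe sets other than controls (signal 62.0) were tested. A model with 4 groups was fitted with limma (version 3.58.1, lmFit and trended eBayes) in R 4.3.3 with the data.table package (version 1.17.8), two-sided, with Benjamini-Hochberg adjustment over all tested genes and a threshold of 0.05. Steps were tested on simulated data. Figures used matplotlib 3.10.9 in Python 3.11.15.

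The members, lists and alternatives were chosen with earlier results of these data known. Named genes are the up to 4 past the threshold in each direction between stages, and for each knockout comparison those that passed, lie at the ends of the fold change range or have arrays that do not overlap; Stard3, Fasn, Elovl6, Srebf1, Srebf2 and others given as values were named after their values were seen. Alternatives changed the pseudocount (64, 1), scaling, filter, probe set, spread model, threshold, covariates or arrays. Same-numbered knockout and control arrays had deviations that correlated between -0.048 and 0.161 at E14.5 and between -0.002 and 0.43 at E16.5. Arrays of different numbers correlated between -0.158 and 0.141 at E14.5 and between -0.295 and 0.254 at E16.5. The highest value, 0.43, was that of replicates 4. The labels name no pairing, and the numbers were not taken as pairs. With the numbers as a block, 293 of all genes passed at E16.5, against 176 without it.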

Additional observations from a re-analysis of the deposited data

Results flagged for a closer look

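In groups of 4 arrays, 6 of 92 groups (46 genes) had 1 array far from the other 3, by Dixon's ratio at the 95% level, which chance gives in about 1 of 20 groups. The cholesterol genes were Tm7sf2 in E16.5 control replicate 4 (242, highest), Dhcr7 in E16.5 knockout replicate 3 (1822, highest), Insig1 in E16.5 control replicate 3 (2929, lowest) and Erlin2, an INSIG-linked membrane protein, in E16.5 control replicate 4 (643, lowest). The other two were Fads1, a fatty acid desaturase, in E16.5 knockout replicate 1 (3681, highest) and Fdx1, the electron donor of CYP11A1, in E16.5 knockout replicate 2 (4361, highest). None of these 6 genes passed between knockout and control at E16.5 in limma.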

How the results depend on the processing

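The count of 0 at E14.5 and the count of 0 for the difference between stages were the same under every alternative run, the replicate block included. The count of 1 at E16.5 was less stable. It was 2 with quantile normalization (Hsd17b7 and Scap), while 2.24% of all genes passed. With all probe sets tested one by one it was 2 (the same pair), while 0.918% of all probe sets passed. It was 2 with array weights (Abcg1 and Scap) and with the replicate block (Hsd17b7 and Scap), against 1.74% and 2.36% of all genes. At an adjusted p of 0.10 it was 3, against 3.76% of all genes. The count was 0 with the mean over probe sets, with the Gapdh covariate, with the bioB covariate and without E16.5 knockouts 1 and 4. Under these settings 158, 19, 17 and 16 of all genes passed, against 176. Leaving out 1 array at a time gave 0 to 2, with 0 for E16.5 controls 1, 2 and 3 and knockouts 1 and 4, and 2 for E14.5 control 1 and E16.5 knockouts 2 and 3. Of all genes, 43 passed without E16.5 knockout 1, the fewest, and 494 without E16.5 knockout 2, the most. Between stages the count was 2 in knockouts and 1 in controls with the Gapdh covariate, against 9.61% and 5.65% of all genes. With the bioB covariate it was 7 in knockouts and 14 in controls, against 31.2% and 45.7% of all genes. The cause was not tested.

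With the Gapdh covariate the stage change turned for Tm7sf2 (0.40 in knockouts, 0.68 in controls), Fdx1 (-0.18 in knockouts, -0.013 in controls), and, in controls, Hsd17b7 (-0.25) and Acly (-0.80). With the mean over probe sets it turned for Scd2 (1.08 in knockouts, 1.11 in controls), Acaca in knockouts (1.56) and Acly in controls (-0.020). Of 1506 single gene values under alternatives, 1418 kept their direction and side of the threshold, 69 no longer passed, 9 came to pass and 10 turned. Dim signals limit Scap's second probe set, Mc2r, and Cyp11a1.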
